A study of Mus musculus with 2 samples.

Results

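Non-classical, Ly6c2-low monocytes numbered 93 of the 17129 cells of the healing skull defect. They made up 50 of 9036 cells in the library from gambogic amide (GA) treated mice, or 0.553% (exact 95% binomial interval 0.411 to 0.729), and 43 of 8093 cells in the control library, or 0.531% (0.385 to 0.715). The ratio of the shares was 1.04 (0.694 to 1.56). These intervals cover counting error only, and with 1 library per condition the difference was not tested. Cells were taken as members by their own counts of unique molecular identifiers (UMIs, 1 per captured transcript). A member held at least 2 UMIs of Csf1r and at least 3 UMIs of Ace, Treml4 and Cd300e together. It held under 5 UMIs of Ly6c2, under 20 of C1qa, C1qb and C1qc and under 3 of Mki67 and Top2a, besides 1 limit on a further gene. S100a8 and S100a9 made up under 3% of its UMIs, and Col1a1, Col1a2 and Col3a1 under 1%. Measured values of these genes therefore chose the members, and their levels are a description.

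Each library pooled cells from 5 male C57BL/6J mice of 2 months. Cells came from cranial bone with a 1.8 mm frontal bone defect at its centre, cut with an edge of about 3 mm on day 7 after injury and digested with collagenase. GA is a small molecule. The GA mice received it intraperitoneally in 10% DMSO, and the control mice received 10% DMSO, in 100 µL each day from 24 h before injury. The sample labels give 1.2 mg/kg for 1 week, whereas the study's methods give 2 mg/kg and 4 weeks. With 1 pooled library per condition there is no replicate. No test between the conditions was made, and all intervals given here are 95% intervals that cover counting error only. The libraries held 182949385 UMIs in 9322 barcodes (GA) and 214993030 UMIs in 8718 barcodes (control). A total of 23 barcodes occurred in both libraries, and 0 of them were members.

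Monocytes leave the marrow as classical cells with high Ly6C and CCR2, which enter injured tissue. Some convert to non-classical cells, which depend on the nuclear receptor NR4A1, lose Ly6C and CCR2, gain CX3CR1 and the integrin LFA-1, and crawl along the inside of small vessels. They depend on CSF1R signalling for survival and are known for clearing damaged endothelium and debris.

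As a share of cells with Csf1r, the receptor for macrophage colony-stimulating factor, members were 2.64% of 1893 GA cells (1.97 to 3.47) and 1.85% of 2324 control cells (1.34 to 2.48). The ratio was 1.43 (0.954 to 2.14). A pair of neighbouring sets were defined by the same limits: Ly6c2 monocytes (at least 5 UMIs of Ly6c2) and C1q macrophages (at least 20 UMIs of the 3 C1q genes), neither with a limit on Ace, Treml4 and Cd300e. Ly6c2 monocytes numbered 204 in GA and 183 in control. Members were 19.7% of both kinds of monocyte in GA and 19.0% in control, a ratio of 1.03 (0.717 to 1.49). C1q macrophages numbered 506 in GA and 844 in control, so the denominator of Csf1r cells differed between the libraries. The C1q limit took the candidates from 120 to 80 cells in GA and from 170 to 97 in control, the Ly6c2 limit from 150 to 120 and from 191 to 170, and the collagen limit from 68 to 50 and from 80 to 43.

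The members held 618483 UMIs in GA and 584766 in control. Their median depth was 10747.5 UMIs in GA (2165 to 41743) and 9612 in control (3362 to 66274), with 3079.5 and 2909 genes. The deepest cell alone supplied 6.75% of the GA members' UMIs and 11.3% of the control members' UMIs. Levels are given as CPM, that is, UMIs of the gene per 1000000 UMIs of the set of cells.

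The label was checked with genes that the rule did not use. A panel of 12 genes known from non-classical monocytes was counted in each cell (Nr4a1, Cx3cr1, Spn, Itgal, Adgre4, Pglyrp1, Eno3, Gngt2, Ear2, Fcgr4, Dusp16 and Itgax). The median member held 9.5 of them in GA and 9 in control. The median Ly6c2 monocyte held 5 and 4, although it was deeper (16680 and 11929 UMIs), and the median C1q macrophage held 4 in both. At least 6 panel genes were found in 45 of 50 GA members and 35 of 43 control members. The same cut was reached by 71 of 204 GA and 44 of 183 control Ly6c2 monocytes. Among C1q macrophages 73 of 506 and 129 of 844 reached it. The label therefore held for most members, though the cut alone does not set them apart from every neighbour. The other 5 GA members and 8 control members had under 6 panel genes and carried 15.7% and 30.0% of the members' UMIs.

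**Figure D1:**
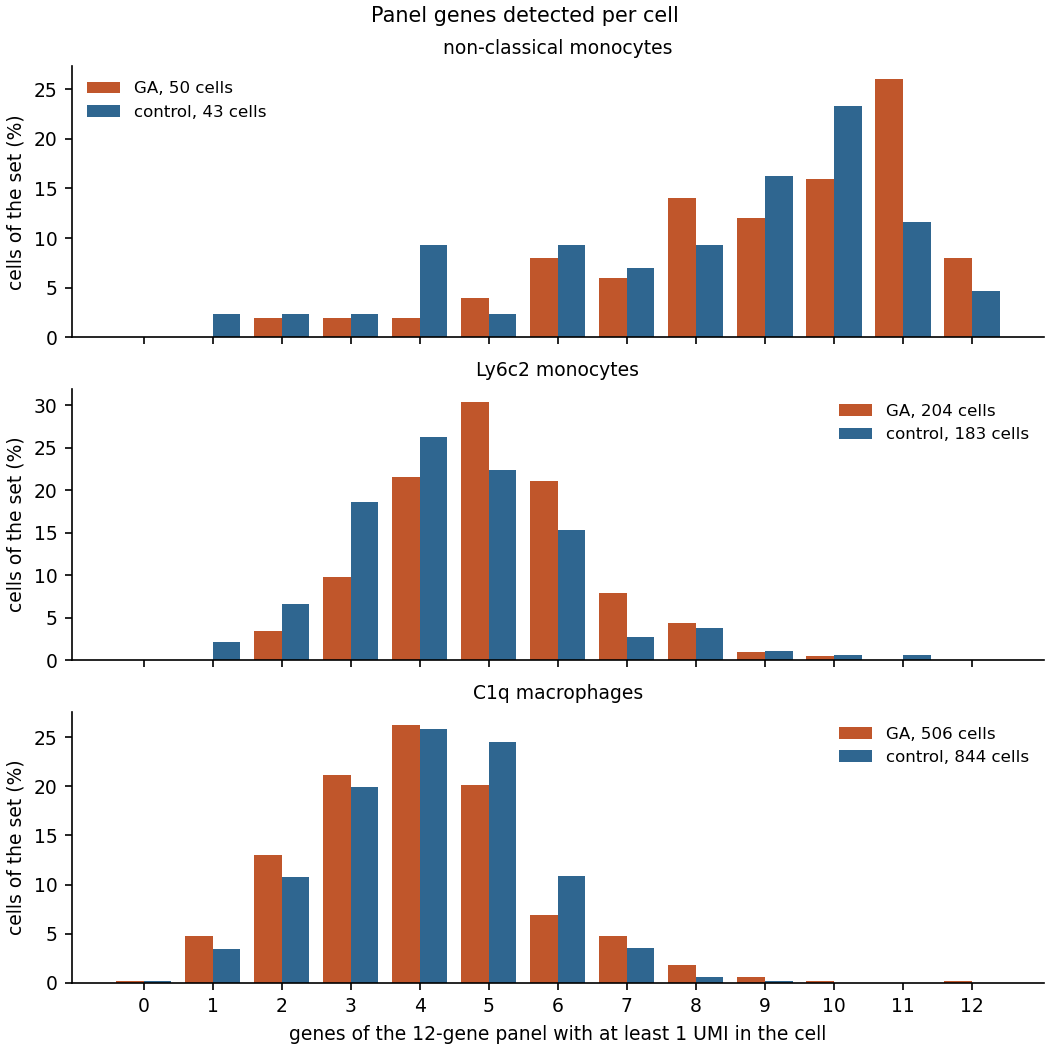
Share of cells (%, vertical axis) by the number of the 12 panel genes with at least 1 UMI (horizontal axis) in non-classical monocytes, Ly6c2 monocytes and C1q macrophages of the GA and control libraries. Members centre on 9.5 and 9 genes and the other sets on 4 or 5, while a few members lie among the other sets.

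The control members below 6 panel genes included 2 cells that held most of the control UMIs of some genes. The deepest control member (66274 UMIs) had 4 panel genes, 3 UMIs of Ace and 0 of Treml4, Cd300e, Adgre4, Itgal and Ccr2. It held 306 of the 319 control UMIs of Ctsk, the collagen-degrading protease of osteoclasts, and 170 of the 221 UMIs of Acp5, the tartrate-resistant phosphatase of osteoclasts. A second control member held all 89 UMIs of Slit2 and 134 of the 222 UMIs of Col1a2. The deepest GA member (41743 UMIs) had 4 panel genes, 3 UMIs of Treml4 and 121 of the 206 GA UMIs of Fabp5, a fatty acid carrier of macrophages. Named genes whose UMIs lay mostly in a few cells often have a further value. A value without the top cells leaves out the cell of each library with most UMIs of the gene. The other kind is taken in the cells with at least 6 panel genes. In ratios over Ly6c2 monocytes or C1q macrophages the top cell was left out of the members only. This tends to lower such ratios, and the share of all genes past the fold was not counted under it. The cut of 6 panel genes kept the GA members with most endothelial and osteoclast marker UMIs (10 and 8 panel genes). The control member with most of both had 4 and was left out.

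Ace encodes angiotensin-converting enzyme, Treml4 a myeloid receptor of the TREM family and Cd300e an activating receptor of myeloid cells. The genes lie at chr11:105967945-105989964 (Ace), chr17:48264295-48275360 (Treml4) and chr11:115051917-115062177 (Cd300e) in mm10. Ace was at 286 CPM in GA members (246 to 332) and 233 in control members (195 to 275). Treml4 was at 234 (198 to 276) and 176 (144 to 214). Cd300e was at 85.7 (64.2 to 112) and 32.5 (19.6 to 50.7), with UMIs in 25 of 50 and 9 of 43 cells. All 3 genes were found together in 19 GA and 9 control members, while 12 and 16 members held only 1 of them. That gene was Treml4 in 10 GA and 8 control members and Ace in 1 and 8. Single-gene members thus made up a larger part of the control set. Thinned to 2000 UMIs per cell, which left out 0 members, Cd300e was found in 11 of 50 GA members (11.5% to 36.0%) and 7 of 43 control members (6.81% to 30.7%). Thinned to 5000 UMIs, which left out 4 GA and 1 control members, it was in 17 of 46 (23.2% to 52.5%) and 5 of 42 (3.98% to 25.6%). The intervals overlap at both depths. The gap between the libraries was wider at 5000 UMIs, where fewer control members had a UMI than at 2000. It is therefore not read as an effect of depth.

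Cells just outside the limit of 3 UMIs had less Itgal than members with exactly 3, but more Adgre4. With 2 UMIs of the 3 genes, 10 GA and 10 control cells had Itgal at 105 and 69.6 CPM. With 3 UMIs, 10 and 11 members had Itgal at 237 and 214, and with 4 or more, 40 and 32 members had it at 675 and 385. Ccr2 was higher just outside (693 and 411) than just inside (226 and 253), and was at 453 and 357 in the members with 4 or more. Adgre4 was at 94.7 and 237 just outside, 70.0 and 176 just inside, and 575 and 566 with 4 or more. Beyond the Ly6c2 limit, 6 GA and 9 control cells with 5 or more UMIs had Itgal at 284 and 510, against 215 and 208 in the 7 and 7 members with 3 or 4 UMIs.

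Promoters of the genes that define or follow the cell type were searched in RefSeq sequence (GRCm38.p6), over the 250 bases before the start and on both strands. Of 18 genes looked up, 15 had an entry. The core GAGGAA, bound by PU.1, was found in 5 of the 15 (33.3%; Ace, Treml4, Pglyrp1, Fcgr4 and Lair1), and in 23.3% of all 32851 promoters. The box CACACCC, bound by KLF factors, was found in 2 (13.3%; Ace and Pglyrp1), and in 6.93% of all. AAAGGTCA, the monomer site of NR4A receptors, was found in 0 of the 15 and in 1.34% of all. No matches overlap in the promoters printed here. The promoters of 3 genes are printed because Ace and Treml4 chose the members and Fcgr4 was among the genes furthest apart between the libraries. Capitals mark GAGGAA or CACACCC, or their reverse complements TTCCTC and GGGTGTG.
Ace, chr11:105967698-105967947, plus strand: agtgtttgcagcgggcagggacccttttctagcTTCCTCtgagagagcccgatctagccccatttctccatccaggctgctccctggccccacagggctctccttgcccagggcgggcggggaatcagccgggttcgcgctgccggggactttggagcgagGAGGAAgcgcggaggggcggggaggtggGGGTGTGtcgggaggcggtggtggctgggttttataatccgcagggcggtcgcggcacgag
Treml4, chr17:48264045-48264294, plus strand: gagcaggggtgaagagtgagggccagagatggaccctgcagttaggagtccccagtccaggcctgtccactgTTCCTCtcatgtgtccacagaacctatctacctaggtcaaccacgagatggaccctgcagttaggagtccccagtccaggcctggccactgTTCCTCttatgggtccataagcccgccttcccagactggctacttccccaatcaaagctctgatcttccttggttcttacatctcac
Fcgr4, chr1:171018676-171018925, plus strand: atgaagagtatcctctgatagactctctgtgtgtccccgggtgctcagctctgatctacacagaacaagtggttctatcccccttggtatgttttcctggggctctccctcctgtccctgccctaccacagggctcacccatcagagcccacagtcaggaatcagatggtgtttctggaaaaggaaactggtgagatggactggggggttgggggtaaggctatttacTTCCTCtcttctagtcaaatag
The Treml4 promoter holds 2 copies of TTCCTC, 178 and 87 bases before the start. In the Ace promoter the GGGTGTG match lies 61 bases before the start, downstream of a GAGGAA match at 89. A match is a description of the letters and not of binding.

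Nr4a1, the nuclear receptor that non-classical monocytes require, was not used by the rule. The gene lies at chr15:101254269-101274795. It was found in 48 of 50 GA members (median 8 UMIs, 0 to 32) and 39 of 43 control members (median 4, 0 to 30). Its level was 731 CPM in GA members (665 to 801) and 424 in control members (373 to 480), against 292 and 300 in Ly6c2 monocytes and 300 and 226 in C1q macrophages. After thinning, 76.0% (61.8 to 86.9) and 65.1% (49.1 to 79.0) of members had a UMI, against 41.7% and 42.6% of Ly6c2 monocytes, 37.9% and 28.5% of mesenchymal cells and 8.10% and 7.59% of B cells. The B cell share was taken as the background, which includes any transcript that B cells make themselves (median depth 6869 and 6209 UMIs, against 10747.5 and 9612 in members). Thinning left out 0 GA and 1 control B cells and 10 and 6 mesenchymal cells. Members therefore had the highest Nr4a1 of these sets in both libraries, and the GA value was the higher.

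The wider set of non-classical genes followed. Against Ly6c2 monocytes of the same library, 15 of 20 were higher by a log2 ratio of at least 1 in both libraries and 0 were lower. The background was 351 of 8600 genes (4.08%) higher and 198 (2.3%) lower past that fold in both. The same background applies to the later list counts against Ly6c2 monocytes. The median log2 ratio of the list was 2.51 in GA and 1.96 in control, beside 0.02 and 0.02 over all genes. Because the same cells define the sets, these comparisons are descriptions.

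Among surface receptors, Adgre4, an adhesion G protein-coupled receptor of myeloid cells, was at 424 and 445 CPM in GA and control members and at 46.7 and 59.8 in Ly6c2 monocytes. Its log2 ratio over Ly6c2 monocytes was 3.18 (2.90 to 3.47) in GA and 2.90 (2.59 to 3.20) in control. It was in 40 of 50 and 33 of 43 members. Thinned, it was in 58.0% and 44.2% of members and in 0 of 605 and 0 of 593 B cells, which allows up to 0.608% and 0.620%. Adgre4 was thus not found in the thinned B cells. Fcgr4, an IgG receptor that marks these cells in mice, was 2.78 and 1.92 higher on the log2 scale. Cx3cr1, the fractalkine receptor, was 1.52 and 0.45 higher, and so passed the fold in GA only. The difference between the libraries was not tested.

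Some adhesion genes were higher in members as well. Itgal, the alpha chain of LFA-1, was at 543 and 332 CPM, with log2 ratios of 2.33 (2.12 to 2.54) and 1.29 (1.03 to 1.55) over Ly6c2 monocytes. Spn, which encodes the sialoglycoprotein CD43, had 2.69 and 2.02, and Pecam1, an adhesion molecule of leukocytes and endothelium, 2.41 and 1.94 (2.65 and 0.95 in the cells with at least 6 panel genes). Itgax, the alpha chain of CD11c, had 2.97 and 4.05, but was found in 12 and 13 cells. Of its 65 GA UMIs 42 were in 1 cell, and without the top cells it had 1.55 and 3.71.

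Migration receptors differed in both directions. Ccr2, the receptor that draws classical monocytes to injury, was at 385 and 325 CPM in members and at 1033 and 1178 in Ly6c2 monocytes (log2 ratios -1.42 and -1.86). It was in 33 of 50 and 24 of 43 members. Thinned, 34.0% and 34.9% of members still had a UMI, against 80.4% and 85.2% of Ly6c2 monocytes and 0.165% and 0.506% of B cells. Members therefore held less Ccr2 than Ly6c2 monocytes, at shares above the B cell background. S1pr5, a sphingosine 1-phosphate receptor for exit from marrow, was at 43.7 and 27.4 (27 and 16 UMIs), with log2 ratios of 5.32 (3.80 to 7.30) and 2.56 (1.37 to 3.82). Fpr2, a formyl peptide receptor, was 1.49 and 1.38 higher, on 8 and 7 cells. Of 11 migration receptors measured, 3 were higher in both (with S1pr1) and 1 was lower, beside 4.08% and 2.3% over all genes. Without the top cells S1pr5 alone stayed higher, with Fpr2 at 0.85 and 0.93 and S1pr1 at 2.63 and 0.67.

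**Figure D2:**
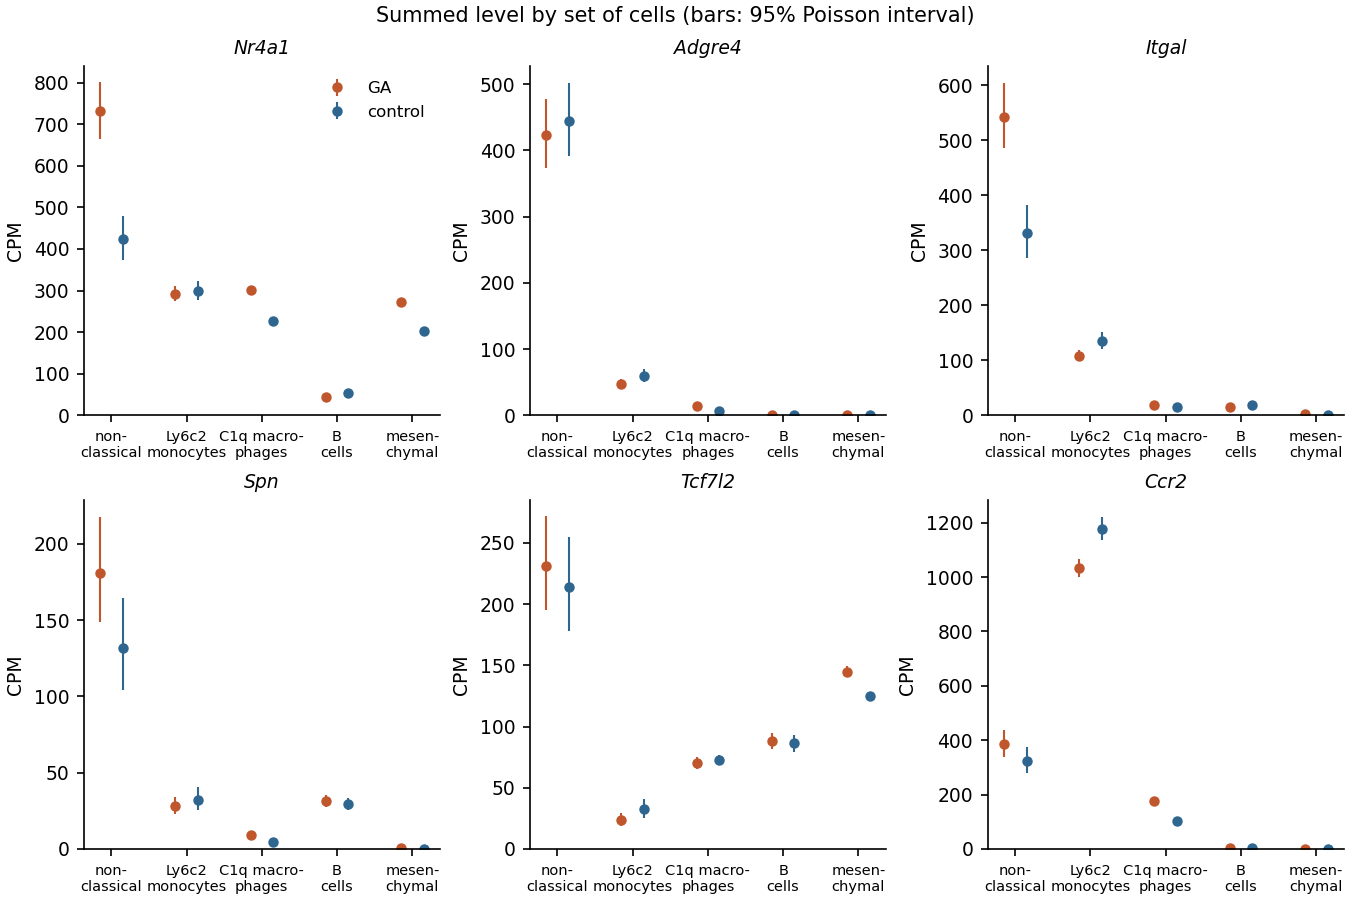
Level (CPM, linear vertical axis from 0) of Nr4a1, Adgre4, Itgal, Spn, Tcf7l2 and Ccr2 summed over 5 sets of cells in the GA and control libraries, with exact 95% Poisson intervals. The first 5 genes are highest in non-classical monocytes in both libraries, while Ccr2 is highest in Ly6c2 monocytes (1033 and 1178).

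Classical monocyte genes lay lower, with 8 of 17 past the fold in both libraries and 1 higher. Over all genes 2.3% were lower and 4.08% higher. F13a1, the coagulation factor XIII A chain, was at 116 and 169 CPM against 1133 and 1137. Vcan, which encodes the matrix proteoglycan versican, had log2 ratios of -1.40 and -2.57, and Chil3, a chitinase-like protein, -1.55 and -2.31. Lyz2, the macrophage lysozyme, was lower by less (-0.84 and -1.13). The higher gene was Klf4, a transcription factor that monocytes of both kinds use (1.07 and 1.02). Of its 385 control UMIs 103 were in 1 cell, and without the top cells its ratios were 0.95 and 0.65, both under the fold. The genes of lowest ratio also included azurophil granule proteases of precursors: Prtn3 was at 8.08 and 1.71 CPM in members and at 438 and 222 in Ly6c2 monocytes, and Ctsg had 0 UMIs in members of either library.

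Transcription factors moved little as a list, with 3 of 23 higher in both libraries and 0 lower, and 2 higher without each gene's top cells. The share over all genes was 4.08% higher and 2.3% lower. Tcf7l2, an effector of Wnt signalling, was at 231 and 214 CPM in members and at 23.5 and 32.4 in Ly6c2 monocytes (log2 ratios 3.30 and 2.72). It was in 37 and 27 members. Thinned, it was in 34.0% and 41.9% of members, 5.39% and 4.92% of Ly6c2 monocytes and 13.4% and 14.3% of B cells. Id2, an inhibitor of basic helix-loop-helix factors, was 1.26 and 1.52 higher. Klf2, a regulator of quiescence and trafficking, was at 555 and 275 CPM against 160 and 198. The log2 ratios of Pou2f2 were 1.74 and 0.93, and those of Cebpb, which acts upstream of Nr4a1 in these cells, 0.28 and -0.09. Among Notch genes, the target Hes1 was at 120 and 116 against 8.19 and 15.6 (3.87 and 2.90), and 2 of 5 genes measured were higher in both, 1 of them without the top cells.

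Survival genes were higher in 5 of 13 cases, beside 4.08% over all genes. Bcl2, the founding anti-apoptotic protein, had log2 ratios of 2.87 (2.38 to 3.37) and 2.43 (1.93 to 2.93) over Ly6c2 monocytes. The near-identical Bcl2a1a, Bcl2a1b and Bcl2a1d had ratios from 1.40 to 3.45, and reads may be split among these copies. The pro-apoptotic Bbc3 was also higher (19.4 and 27.4 CPM against 7.37 and 9.68, on 12 and 16 UMIs).

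Of 13 genes for lipid handling, 6 were higher than in Ly6c2 monocytes in both libraries and 0 lower, beside 4.08% and 2.3% over all genes. Against C1q macrophages 3 were higher and 4 lower, where over all genes 7.65% were higher and 4.65% lower. The following ratios are over Ly6c2 monocytes. Pparg, the nuclear receptor of fatty acid storage, was at 207 and 258 CPM against 10.6 and 31.6 (4.28 and 3.03), with UMIs in 31 and 25 members. The cholesterol exporters Abca1 (1.11 and 1.24) and Abcg1 (1.92 and 1.13) were higher as well, Abcg1 under the fold in control without the top cells (1.64 and 0.96). Fabp4, a fatty acid carrier, had 5.53 and 6.62, but 128 of its 145 control UMIs were in 1 cell, and without the top cells it had 4.92 and 3.70. Apoc2, a cofactor of lipoprotein lipase, had 1.39 and 1.14 (1.26 and 0.89 without the top cells). Apoe was 1.02 and 1.04 higher, but 576 and 277 of its 2278 control UMIs were in 2 cells. The ratios of Apoe were 0.99 and 0.70 without the top cells, and 1.05 and 0.46 in the cells with at least 6 panel genes. Without each gene's top cells, 3 of the 13 genes stayed past the fold in both libraries, and in the cells with at least 6 panel genes 5 did. Apoe is also the most abundant marker of C1q macrophages, where it was at 21443 and 33398 CPM against 2071 and 3896 in members, and the part of macrophage RNA in this value was not tested. Outside the list, Cd36, the scavenger receptor for oxidised lipid, was at 443 and 445 CPM against 40.7 and 74.5 in Ly6c2 monocytes (3.45 and 2.58). Of its 274 GA UMIs 127 were in 1 cell, and without the top cells it had 2.65 and 2.31.

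Inflammatory mediators differed less. Of 21 cytokines and chemokines measured, 1 was higher in both libraries, Tnf (1.73 and 1.62). This count is near the 4.08% over all genes and is not read as a result for the list. Il1b, the inflammatory cytokine interleukin-1 beta, was at 2078 and 2297 CPM in members and 1503 and 1510 in Ly6c2 monocytes. It was found in 50 of 50 GA members and 30 of 43 control members, and 500 of the 1343 control UMIs were in 1 cell. Thinned, 78.0% (64.0 to 88.5) of GA members and 51.2% (35.5 to 66.7) of control members had a UMI, against 49.0% and 50.3% of Ly6c2 monocytes and 5.29% and 1.52% of B cells. The summed level and the share of cells put the libraries in opposite order, so no order is read from them. Pdgfb, a growth factor for mural cells, was 3.85 and 3.57 higher on 34 and 35 UMIs (3.68 and 2.78 without the top cells). Of 16 interferon response genes 0 were higher and 1 was lower (list medians -0.58 and -1.12), and of 10 genes for MHC class II presentation 0 were higher and 1, H2-DMa, was lower (-1.28 and -1.22; -1.21 and -0.87 in the cells with at least 6 panel genes).

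The 12 genes of highest ratio in both libraries included the panel genes Eno3, the muscle-type enolase (6.15 and 4.49, in 27 and 24 members), and Ear2, an eosinophil-type ribonuclease (3.41 and 3.32, in 36 and 24). Outside the panel they included Setbp1 (6.49 and 3.23, in 24 and 12), Rps6ka2, a ribosomal S6 kinase (3.47 and 4.77, in 16 and 10), and Cyth3, an exchange factor for ARF GTPases (3.26 and 3.19, in 30 and 29). Eno3 was in 0 of 204 and 0 of 183 thinned Ly6c2 monocytes. By contrast Thsd7a, Fbxl7, Slit2 and Mmp12 reached this group on 1 to 5 members in each library, so their ratios describe those cells. Rnf128 and AA467197 lay between, on 6 to 9 members.

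**Figure D3:**
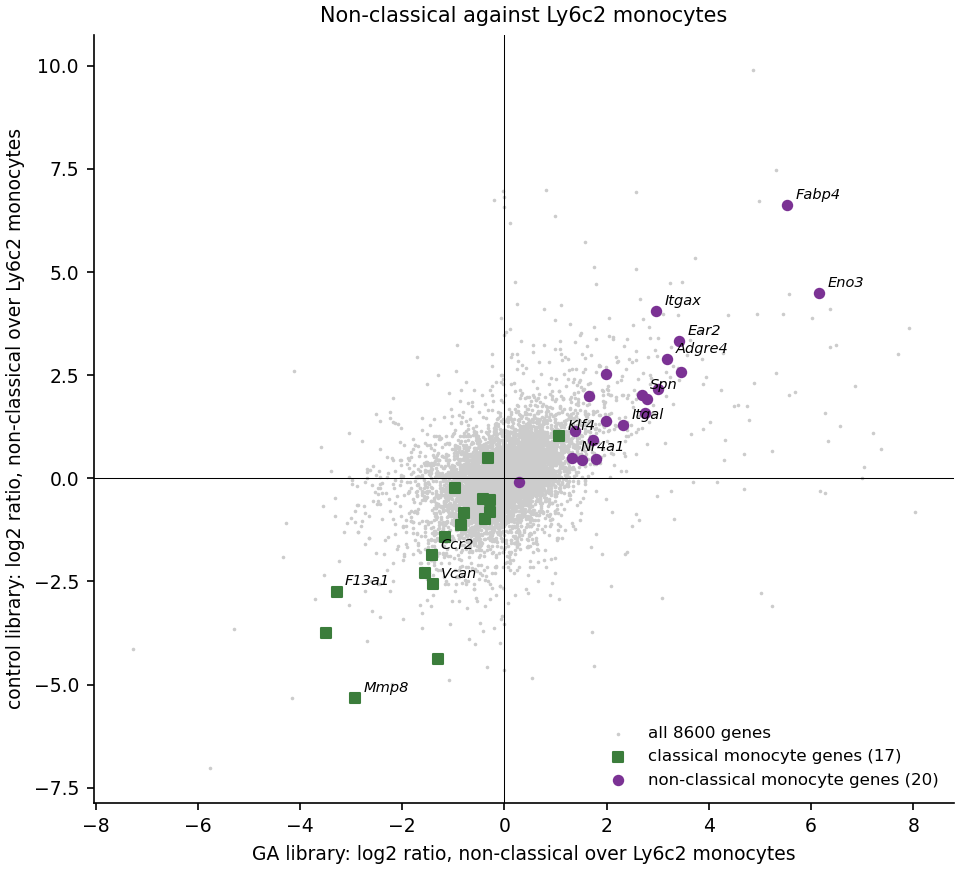
Log2 ratio of non-classical over Ly6c2 monocytes in the GA library (horizontal axis) and in the control library (vertical axis) for 8600 genes, with the 20 non-classical genes (purple circles) and the 17 classical genes (green squares). The non-classical genes lie at the upper right with medians of 2.51 and 1.96, and 8 classical genes lie past -1 on both axes.

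Against C1q macrophages, 868 of 11339 genes (7.65%) were higher and 527 (4.65%) lower past the fold in both libraries. The highest included Plac8, a small cysteine-rich protein of monocytes (1817 and 1242 CPM against 42.8 and 13.9), Gm9733 (121 and 83.8 CPM against 1.20 and 0.928), Adgre4 (5.00 and 6.05) and Pglyrp1, a peptidoglycan recognition protein (4.97 and 6.23). Plac8 was shared with Ly6c2 monocytes, where it was at 2375 and 2459. Of the 17 classical genes 8 were higher than in macrophages, as were 11 of the 20 non-classical genes. Without each gene's top cells 6 and 10 were, with Ccr2 among those lost. Flt1, a receptor for VEGF, was 5.61 and 6.01 higher, with UMIs in 18 and 12 members. Of these 57 of 87 GA UMIs and 26 of 62 control UMIs were in 1 cell each, and without them the log2 ratios were 4.14 and 5.40. Residency genes of tissue macrophages were lowest: Folr2, a folate receptor, was at 0 and 6.84 CPM against 329 and 187, and Cbr2 had log2 ratios of -6.54 and -6.63. Members thus carried genes of both monocyte kinds, and less of the macrophage markers than C1q macrophages, which the limits on C1q set apart. Against Ly6c2 monocytes, 4 of 7 macrophage markers measured were higher past the fold in both libraries (Apoe, Cd63, Spp1 and Gpnmb). Over all genes 4.08% were. Without the top cells 0 of the 4 stayed past the fold.

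Between the conditions, 79 of 4087 genes (1.93%) were higher and 159 (3.89%) lower in GA members by a log2 ratio of at least 1, among genes with at least 50 UMIs over the 93 cells. The median gene had 0.03. Of the 20 non-classical genes 3 were higher past the fold and 0 lower, with 14 above 0 and a median of 0.44. These were Fcgr4, Dusp16 and Klf2. Fcgr4 was at 184 CPM in GA (152 to 221; 36 cells) and 71.8 in control (51.8 to 97.1; 20 cells), a log2 ratio of 1.36 (0.84 to 1.91). Dusp16, a phosphatase of stress kinases, was at 744 and 366 (1.02, 0.79 to 1.26), and Klf2 at 555 and 275 (1.01, 0.74 to 1.29). For Klf2 104 of the 343 GA UMIs were in 1 cell, and without the top cell of each library its ratio was 0.64. Dusp16, itself a panel gene, came to 0.80 in the cells with at least 6 panel genes, so both calls lie at the fold.

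Nr4a1 (0.79, 0.56 to 1.01) and Itgal (0.71, 0.45 to 0.97) were higher in GA by less than the fold, and came to 0.51 and 0.41 in the cells with at least 6 panel genes. Gngt2, a G protein gamma subunit, had 0.50, Spn 0.46, Ear2 0.43 and Pglyrp1 0.65, and in those cells 0.32, 0.25, 0.15 and 0.41. Adgre4 (-0.07, -0.32 to 0.18) and Cx3cr1 (0.15, -0.17 to 0.47) had intervals that include 0, and came to -0.32 and 0.01 in those cells. The median of the list fell to 0.25 there. The genes named so far in this paragraph are themselves panel genes. Those cells were chosen by detection of panel genes, which left out 5 GA and 8 control members. The values there therefore depend in part on that choice. In Ly6c2 monocytes the GA over control ratio of Nr4a1 was -0.04 and that of Itgal -0.33. These differences between the kinds of monocyte were not tested.

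Among genes with at least 100 UMIs in at least 10 members, the 12 highest ratios in GA were led by Ngp, a neutrophil granule protein, with 245 and 9 UMIs. It was in 23 and 8 members. Of the GA UMIs 217 were in 1 cell, and thinned cells had it in 10.0% of GA members and 10.7% of GA B cells. Vcan was at 419 CPM in GA (14 cells) and 78.7 in control (8 cells), a log2 ratio of 2.41 (1.96 to 2.90). Of its 259 GA UMIs 131 were in 2 cells. Without the top 2 cells of each library the ratio was 3.05, with 15 control UMIs left. In Ly6c2 monocytes the Vcan ratio was 1.24. Trem1, a receptor that amplifies inflammatory signals, was at 179 (36 cells) and 54.7 (15 cells), a ratio of 1.71 (1.13 to 2.33), which came to 0.58 with the limits of the rule scaled to the depth of the cell. Trem3, its mouse paralogue, was at 183 and 73.5 (1.31, 0.79 to 1.85; 34 and 18 cells) and at 105 and 44.6 in Ly6c2 monocytes. The Trem3 ratio in members came to 0.74, under the fold, with each cell weighted equally. Thinned, Trem1 was in 26.0% and 9.30% of members and 2.31% and 0.337% of B cells, and Trem3 in 34.0% and 16.3% of members and 1.32% and 0.506% of B cells. Both were thus above the B cell background in each library.

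The other high ratios were Tppp3, a tubulin-binding protein (2.08; 52 of 112 GA UMIs in 1 cell), Pf4, a platelet chemokine that macrophages also hold (1.56; 0.92 without the top cells), Gpr65, a proton-sensing receptor (131 and 46.2 CPM; 0.38 as a log2 ratio with a limit of 5 UMIs on Ace, Treml4 and Cd300e), Fabp5 (1.38; 0.28 without the deepest member of each library), Tnfaip8 (1.28, in 38 and 27 cells), Chil3 (1.25; 0.59 in cells with at least 6 panel genes) and Limd2 (1.24, in 39 and 27 cells). Vcan, Tppp3 and Fcgr4 stayed past the fold under every alternative in which they had enough UMIs (17, 16 and 16 alternatives). Ngp was too low to measure in the alternatives that left out its top cell. The lowest ratio over the alternatives was 0.92 for Limd2 and 0.96 for Tnfaip8, both under the fold. The ratio of Fcgr4 ranged from 1.00 to 1.49 and that of Vcan from 1.77 to 4.21.

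Neutrophil markers were higher in GA both in the members and in the other cells. The 12 markers summed to 2078 CPM in GA members and 836 in control members, with S100a9 the most abundant in GA and S100a8 in control, and to 95741 and 27224 in all other cells. Of 6 markers measured, 5 were higher past the fold in GA. Ngp, Camp and Ltf had 9, 4 and 2 control UMIs, so they met the minimum of 50 UMIs through GA. Of their GA UMIs 217 of 245, 72 of 92 and 65 of 76 were in 1 cell each. S100a8 and S100a9 were limited by the rule. The count is therefore a description of few cells and is not read as a result for the list. In each library 1 cell held most of the sum (703 of 1285 GA UMIs and 283 of 489 control UMIs), and without these cells the sums were 962 and 359 CPM. S100a9 was in 48 of 50 and 25 of 43 members, and after thinning in 44.0% and 14.0% of members and in 46.0% and 18.4% of B cells, and so was at the background share. In the other cells Trem1 was at 132 and 44.1 CPM, Trem3 at 144 and 44.9 and Chil3 at 1129 and 381. The part of RNA from other cells in the GA ratios of these 3 genes was not tested.

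**Figure D4:**
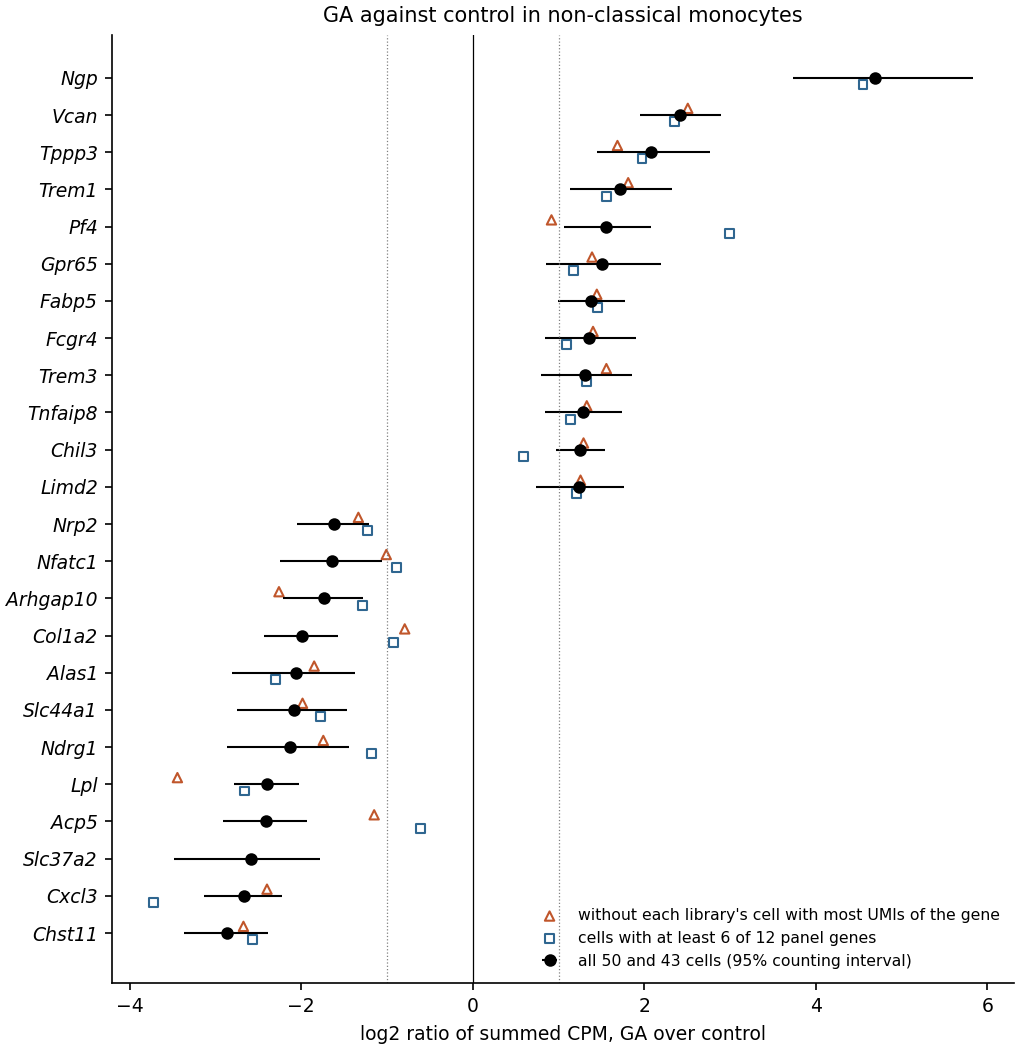
Log2 ratio of GA over control (horizontal axis) for the 12 highest and 12 lowest genes with at least 100 UMIs, in all members (black, 95% counting interval), without the cell of each library with most UMIs of the gene (triangles) and in cells with at least 6 of 12 panel genes (squares). Slc37a2 has neither open symbol and Ngp no triangle because fewer than 50 UMIs were left, and Acp5 moves from -2.41 to -0.61.

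The genes lower in GA rested on fewer cells. Of 6 osteoclast programme genes measured, 5 were lower past the fold and 1 higher, with a median of -2.29. Ctsk had 5 UMIs in GA and 319 in control, 306 of these in the deepest control member. Atp6v0d2 had 8 and 93, with 89 in that member, and Tnfrsf11a 11 and 47, with 24 in 1 control cell. These genes met the minimum count mainly through control. The count and the median are therefore a description of few cells and are not read as a result for the list. Acp5 was at 71.1 and 378 CPM (-2.41, -2.91 to -1.94), and at -0.61 in the cells with at least 6 panel genes. Nfatc1, the master regulator of osteoclast formation, was at 53.4 and 166 (-1.64) and came to -0.89 in those cells. The 7 osteoclast markers summed to 168 and 1182 CPM, with Ctsk the most abundant in control and Acp5 and Mmp9 in GA. In control 569 of 691 of these UMIs were in 1 cell and in GA 59 of 104, and without these cells the sums were 76.7 and 235 CPM. Mmp9, the higher gene (1.79), had 36 of its 44 GA UMIs in 1 cell.

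Chst11, a chondroitin sulphate sulphotransferase, was at 66.3 CPM in GA (12 cells) and 482 in control (13 cells), a ratio of -2.86 (-3.37 to -2.39). It stayed past the fold under all 17 alternatives (-2.97 to -1.04). Of its 282 control UMIs 116 were in the deepest member and 227 in the top 3 cells. Cxcl3, a neutrophil-attracting chemokine, was at 79.2 and 503 (-2.67), but was found in 5 and 6 cells, and 288 of its 294 control UMIs were in 2 cells. Lpl, lipoprotein lipase, was at 115 and 605 (-2.40), with 220 of 354 control UMIs in 1 cell. Slc44a1, a choline transporter (-2.08), Alas1, the first enzyme of haem synthesis (-2.06), and Ndrg1, a stress-response gene (-2.13), had UMIs in 10 to 17 control cells, but few cells held most of them. The top 3 control cells held 71 of 108 Slc44a1 UMIs, 73 of 87 Alas1 UMIs and 61 of 91 Ndrg1 UMIs. Slc37a2 (-2.58), Arhgap10 (-1.74) and Nrp2, a semaphorin and VEGF co-receptor (-1.62), completed the group together with Col1a2 (-1.99), a gene of the rule that came to -0.79 without the top cells. For Slc37a2 62 of the 85 control UMIs were in 1 cell, and for Nrp2 93 of the 195.

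Most other lists lay near the background. Past the fold were 0 of 8 migration receptors, 0 of 8 genes for MHC class II presentation (median 0.05), 0 of 15 immediate early genes (0.18), 0 of 10 heat shock genes (0.13), 0 of 13 glycolysis genes (-0.04), 0 of 7 Toll-like receptor genes (0.36) and 0 of 6 phagocyte oxidase genes (0.35). Among 9 interferon response genes 1 was lower, Oasl2 (-1.23), which was also lower in Ly6c2 monocytes (-1.01). Cd74, the invariant chain of MHC class II, was at 2202 and 2327 CPM. Of growth factors of repair, Areg had 92 UMIs in GA and 1 in control, but in 4 and 1 cells, 61 of them in 1 cell. Pdgfa had 0 UMIs in GA, where ratios use a floor of 3, and 52 in control, 45 of them in the deepest control member.

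Of 4038 genes measured in both kinds of monocyte, 73 were higher past the fold in GA members, and 134 were lower. Both kinds come from the same 2 libraries. Genes past the fold in the same direction in both kinds included Vcan, Trem3, Ifitm1 (1.92 and 1.40) and Ltf, higher in GA, and AA467197 (-1.60 and -1.87), Blnk, Gpr183 and Oasl2, lower in GA. Ltf is a neutrophil granule gene and had 65 of its 76 GA UMIs in 1 member. Acp5, Cxcl3, Hpgd, Mast4 and Tm4sf1 were past the fold in opposite directions. These genes were chosen after their values were seen.

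Markers of the further cell types given here summed to less in members than in all other kept cells, except for endothelial markers. Endothelial markers were at 52.5 and 101 CPM in those other cells, below the members' sums. T or NK cell markers were at 169 and 118 there, close to the members' sum in GA. Endothelial markers summed to 246 CPM in GA, led by Flt1, and 368 in control, led by Emcn with all 76 UMIs in 1 cell, and mesenchymal markers to 595 and 1094 (566 and 666 without the cell of each library with most of them). Platelet markers came to 230 and 83.8 (Pf4), T or NK cell markers to 163 and 34.2, B cell markers to 197 and 156 (121 and 131, in the opposite order, without the cell with most of them), dendritic cell markers to 30.7 and 58.1, pericyte markers to 4.85 and 41.0 (3.30 and 11.6 without that cell), erythroid markers to 43.7 and 27.4, and progenitor markers to 149 and 109. Single cells held much of these sums. In GA 1 member held 74 of the 101 T or NK cell UMIs and another 121 of the 152 endothelial UMIs, and in control the deepest member held 175 of the 215 endothelial UMIs. Without the cell with most UMIs of the list, the sums came to 45.4 and 23.5 CPM for T or NK cells, 52.3 and 77.1 for endothelium and 106 and 61.1 for platelets. All 7 mast cell or basophil markers were at 0 UMIs. The 10 macrophage markers summed to 3135 and 5537 in members, 1608 and 2477 in Ly6c2 monocytes and 38876 and 52190 in C1q macrophages, led by Apoe. The part of these markers in the GA ratios was not tested.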

How the data were processed

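Single-cell RNA-seq was read from 2 matrices that the authors deposited, 1 per condition, as counts of UMIs per gene and cell barcode, without normalization. The file headers name Cell Ranger 7.0.1, and the submitters' processing notes name Cell Ranger and mm10. The study's methods name another version and 2 chemistries, so the kit is not stated here. Kept cells had 500 to 140000 UMIs and 200 to 9500 genes, with at most 15% of UMIs from mitochondrial transcripts. No doublets were removed by the rule. Of the barcodes with the highest Scrublet scores (0.8% per 1000 barcodes; scanpy 1.11.5), 2 GA and 2 control members were removed as an alternative. Its own threshold marked 0.0322% and 0.516% of barcodes.

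UMIs were summed over the cells of a set in each library and divided by their total. Levels have exact Poisson intervals, shares exact Clopper-Pearson intervals and log2 ratios exact conditional binomial intervals, at 95% (SciPy 1.17.1). A gene was compared with at least 50 UMIs and was past the fold at an absolute log2 ratio of 1. A gene with 0 UMIs in a set was set to a floor of 3 UMIs in ratios. This floor is not the exact Poisson limit for a count of 0. The counts of genes past the fold stand in for calls, since 1 library per condition allows no test. B cells held at least 5 UMIs of Cd79a and Cd79b and 0 of Csf1r, and mesenchymal cells at least 5% collagen UMIs and 0 of Ptprc. Thinning drew 2000 UMIs from each cell. Some genes, 1 of them used by the rule, are not reported here.

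Members and the 35 gene lists were chosen with earlier results of these data known. Named genes are the markers and genes of the rule, members of the lists, the 12 highest and 12 lowest GA ratios among genes with at least 100 UMIs in at least 10 members, and the 12 highest and lowest against Ly6c2 monocytes by the smaller of the 2 libraries' ratios. Gene positions are from GENCODE vM21. The steps were tested on simulated counts. Alternatives concern the limits of the rule, doublets, shared barcodes, weighting, scaling and the minimum count. The cells with at least 6 panel genes, and leaving out each gene's top cell or top 2 cells, were added after seeing the data.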

Additional observations from a re-analysis of the deposited data

Results flagged for a closer look

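Acp5 and Cxcl3 had GA over control ratios of opposite sign in the 2 kinds of monocyte. The log2 ratio of Acp5 was -2.41 in non-classical and 1.75 in Ly6c2 monocytes, a difference of -4.16 (-5.04 to -3.27). For Cxcl3 the ratios were -2.67 and 1.90, a difference of -4.57 (-5.20 to -3.93). The intervals cover counting error only, and the differences were not tested. In members 64.2% of the Acp5 UMIs were in 1 control cell, and without the top cell of each library its ratio was -1.15. For Cxcl3 288 of the 294 control UMIs were in 2 cells. Without the top 2 cells of each library 15 GA and 6 control UMIs were left, too few to compare.

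Of 4038 genes compared in both kinds of monocyte, Hpgd, Mast4 and Tm4sf1 were the other genes past the fold in opposite directions. Hpgd, which degrades prostaglandins, had 96 and 41 UMIs in 27 GA and 15 control members, a log2 ratio of 1.15, against -1.06 in Ly6c2 monocytes, a difference of 2.20 (1.57 to 2.84). Mast4 differed by 7.80 and Tm4sf1 by 8.85, but 89.4% and 73.3% of their member UMIs were in 1 cell. These differences were not tested either.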

How the results depend on the processing

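No paired analysis was possible because each condition has 1 library, and for the same reason no replicate could be left out. The ratio of the shares of cells ranged from 0.940 to 1.32 over the alternatives. With a limit of 5 UMIs on Ace, Treml4 and Cd300e the shares came to 0.376% (GA) and 0.284% (control), and with under 2 UMIs of Ly6c2 the control share came to 0.371%. Scaled to UMIs per 10000 of the cell, the limits left 42 genes higher and 81 lower in GA, and 806 lower than in C1q macrophages. Weighting cells equally gave 927 lower than in C1q macrophages. With a minimum of 20 UMIs, 264 genes were higher and 452 lower in GA, and 582 were higher than in Ly6c2 monocytes. With 200 UMIs the counts were 12 and 23 in GA, 148 and 78 against Ly6c2 monocytes, and 525 higher than in C1q macrophages. More or fewer genes were compared by construction. The cells with at least 6 panel genes, an alternative added after seeing the data, gave 92 genes lower in GA. The cause of the other changes was not tested.

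The 12 highest and 12 lowest genes of GA over control kept their sign under every alternative that measured them. Scaling the limits to depth left 1 of 3 measured genes of the 12 lowest past the fold (Chst11), the other 9 having too few UMIs, and 7 of 11 of the 12 highest, without Trem1 (0.58). With the highest Scrublet scores left out 9 of 11 and 8 of 11 stayed past it. Of 72 shares of members with a UMI, 43 moved outside their interval at 5000 UMIs and 65 without thinning, where more UMIs per cell are drawn by construction. Precision is limited by the 93 cells: Cd300e, with 72 UMIs, had a GA over control ratio of 1.40 with an interval from 0.62 to 2.24.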

Other observations

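Transcripts of scavenger receptors and of cytokines also differed between the members and C1q macrophages, as a description of the same sums. Of 14 scavenger and efferocytosis receptors measured, 5 were lower past the fold in both libraries and 0 higher. For all counts in this section, the share over all 11339 genes was 7.65% higher and 4.65% lower. Mrc1, the mannose receptor, had log2 ratios of -4.16 and -3.73, Mertk, which binds dying cells, -3.42 and -3.95, and Stab1 -3.63 and -3.23. Of 22 cytokines and chemokines 8 were lower and 1, Il1b, was higher (2.34 and 2.28). The lower genes included the monocyte attractant Ccl2 (-2.68 and -2.98), Cxcl16 (-2.11 and -2.09) and Il1rn, the interleukin-1 receptor antagonist (-1.42 and -1.33).

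Of 17 genes for integrins and adhesion 9 were higher than in C1q macrophages and 1 was lower. Itga4 and Itgb7, the chains of a gut-homing integrin, had log2 ratios of 2.45 and 2.57 and of 2.54 and 1.96. Growth factors lay lower in 5 of 12 cases and higher in 0, among them Igf1 (-4.75 and -2.79) and Grn, progranulin (-2.46 and -2.15). Among transcription factors 4 were higher (Irf2, Pou2f2, Bcl6 and Tcf7l2) and Cebpa, Id2 and Maf were lower, Id2 by less than the fold (-0.94 and -0.99) in the cells with at least 6 panel genes. Maf had -2.38 and -2.87. Of 6 Fc receptor genes 3 were lower, with the high-affinity receptor Fcgr1 at -1.70 and -1.74.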
